A study of Mus musculus with 14 samples.

Results

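Upper cortical layer genes are transcripts that mark, or act in, the excitatory neurons near the surface of the cerebral cortex. Here 10 such genes were followed: Cux1, Cux2, Rorb, Pou3f1, Pou3f2, Pou3f3, Mdga1, Rasgrf2, Calb1 and Inhba. A gene was measured where a probe set carried its symbol and no other. That held for 9 of the 10, with 1 probe set each, out of 23332 probe sets in all and 14996 with a single symbol. Mdga1 had no such probe set and is not analysed here. The choice of genes used no measured value of these arrays, but it was made with earlier results of these data known.

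The series holds 14 Affymetrix exon arrays of total RNA from mouse cerebral cortex and hippocampus at postnatal day 7, on a C57BL/6 background, all labelled male. Control mice were homozygous for floxed Ctcf alleles and had no Cre (Nex-Cre +/+). Conditional knockout (cKO) mice had the same floxed alleles and 1 Cre allele (Nex-Cre +/Cre). Cortex has 4 arrays of each genotype and hippocampus 3. CTCF is a zinc finger protein that anchors chromatin loops together with cohesin. Nex is another name of Neurod6, whose locus drives Cre in excitatory neurons of cortex and hippocampus once they have left the cell cycle. Interneurons, glia and vessel cells of the dissected tissue keep Ctcf, and a group with Cre but no floxed allele was not part of the design, so effects of Ctcf deletion and of Cre cannot be told apart. The arrays of a group are called biological replicates, with no animal named, and p-values measure the spread between these arrays.

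Upper layer neurons are the last excitatory neurons to be born. They settle above the older deep layer neurons and send axons mostly to other cortical areas, while the granular layer beneath them receives the thalamic input. Cux1 and Cux2 are cut-homeobox transcription factors that shape the dendrites and spines of these cells. Pou3f2 (Brn2) and Pou3f3 (Brn1) are POU-homeobox factors that act redundantly in the production and migration of upper layer neurons, and Pou3f1 (Oct6) is their relative. Rorb is an orphan nuclear receptor of the granular layer that takes part in barrel formation. Rasgrf2 is a calcium-regulated exchange factor for Ras, Calb1 encodes the calcium buffer calbindin, and Inhba encodes the subunit that forms activin A. Calb1 is also known from interneurons, dentate granule cells and pyramidal cells of hippocampal field CA1.

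Of the arrays labelled hippocampus, 3 are near-copies of cortex arrays and are set aside. Control hippocampus 2 pairs with control cortex 3, and cKO hippocampus 1 and 3 pair with cKO cortex 3 and 2, with a Spearman correlation of 0.997 over all probe sets in each pair against at most 0.990 for any other pair of arrays. On the 11 arrays that remain, the hippocampal genes Prox1 and Zbtb20 told the regions apart, at 8.91 or more and 10.43 or more on the 3 hippocampus arrays against at most 7.20 and 8.61 on the 8 cortex arrays (log2 values, as are all levels below). Prox1 and Zbtb20 come from a list of 14 hippocampal subfield genes, 11 of them measured. Between control hippocampus and control cortex, 9 of these 11 differences were positive and 2 negative. Of the 11 limma called 5 higher in hippocampus and 0 lower, where 6.2% and 6.29% of all probe sets were. Ctcf fell by 1.42 (SE 0.08, limma, adjusted p = 8.42e-05) in cKO cortex. The median array value lay between 6.57 and 6.77. Y-linked signal was lacking on 4 of these arrays, all labelled male: numbers 1 and 4 of cKO cortex, number 1 of control hippocampus and number 2 of cKO hippocampus. With 2 control arrays and 1 cKO array left for hippocampus, the lone cKO array was assumed to vary like the other groups. In whole tissue, fewer cells of a type and less RNA per cell cannot be told apart.

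The start sites of 4 of the genes are shown: Cux2, Rorb and Pou3f2, which were called between the regions below, and Pou3f3, which was not called. Each window holds 250 bases before and 50 after a start site from RefSeq on GRCm38.p6, which is not the build (mm9) named in the submitters' processing notes. Capitals mark matches, on either strand, to AGGNGGC, a core of the CTCF binding motif.
Cux2, chr5:122049802-122050101, minus strand: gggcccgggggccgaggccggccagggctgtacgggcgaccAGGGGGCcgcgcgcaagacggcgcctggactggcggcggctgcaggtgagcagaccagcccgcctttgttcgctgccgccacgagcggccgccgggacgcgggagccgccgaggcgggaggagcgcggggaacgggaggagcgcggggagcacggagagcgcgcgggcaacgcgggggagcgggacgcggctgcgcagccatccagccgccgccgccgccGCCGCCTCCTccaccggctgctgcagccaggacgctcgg
Rorb, chr19:19111147-19111446, minus strand: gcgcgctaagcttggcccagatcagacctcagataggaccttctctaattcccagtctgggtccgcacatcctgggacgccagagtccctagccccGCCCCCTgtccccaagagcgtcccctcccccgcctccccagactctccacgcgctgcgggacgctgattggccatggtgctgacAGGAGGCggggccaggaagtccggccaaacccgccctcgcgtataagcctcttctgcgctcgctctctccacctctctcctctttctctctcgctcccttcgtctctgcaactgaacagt
Pou3f2, chr4:22488317-22488616, minus strand: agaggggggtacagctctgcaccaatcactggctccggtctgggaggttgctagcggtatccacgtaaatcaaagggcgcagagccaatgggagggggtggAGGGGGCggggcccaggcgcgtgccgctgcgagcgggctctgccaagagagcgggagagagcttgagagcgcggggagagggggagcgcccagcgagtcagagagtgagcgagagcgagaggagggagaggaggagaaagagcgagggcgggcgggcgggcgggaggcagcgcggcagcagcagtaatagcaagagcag
Pou3f3, chr1:42695518-42695817, plus strand: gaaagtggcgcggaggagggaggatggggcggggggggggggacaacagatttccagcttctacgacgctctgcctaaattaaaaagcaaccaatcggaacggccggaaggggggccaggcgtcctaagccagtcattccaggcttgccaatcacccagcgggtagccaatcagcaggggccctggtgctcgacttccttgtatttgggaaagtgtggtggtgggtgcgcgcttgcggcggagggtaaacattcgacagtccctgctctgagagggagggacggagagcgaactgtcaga

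The Cux2 window held 3 matches, which begin at -209, 11 and 14 relative to the start site, the latter 2 overlapping on the opposite strand. The Rorb window held 2 and the Pou3f2 window 1. The Pou3f3 window held none, which says only that these letters are not in it. The windows of Cux1 and Rasgrf2, genes also called lower in hippocampus, held none either. Nor did that of Inhba, which was not called, or the further windows of Cux2 and Rorb. A link between matches and region calls was not tested. The Mdga1 window held 1. Of 32851 RefSeq promoter windows 29.4% held a match, so a match is common. RefSeq gave 10 windows for 8 of the 10 genes, with a further start site for Cux2 and for Rorb, and none for Pou3f1 or Calb1. CpG dinucleotides numbered 48 in the Cux2 window shown (percentile 99.0 of all windows), 20 in that of Rorb, 24 in that of Pou3f2 and 18 in that of Pou3f3, against a median of 7 over all windows. The Inhba window, with 7 CpG, and the further Cux2 window held the TATA box letters TATAAA, as did 13.6% of all windows. The POU octamer ATGCAAAT and the ROR element AGGTCA were in none of the 10 windows, and in 1.74% and 16.3% of all windows.

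The first comparison asks how the upper layer genes of cortex stood in cKO mice. A call here needs more than a 1.2-fold change and, in limma's test, an adjusted p below 0.05. None of the 9 measured genes was called, where 455 of all 23332 probe sets were (1.95%). The changes lay between -0.38 (Inhba) and 0.11 (Rorb), with 7 of 9 negative and a median of -0.17, against a median of -0.02 over all probe sets. At an unadjusted p under 0.05 there were 2, Cux2 and Inhba, where 11.4% of all probe sets passed. In 2 genes, Cux2 and Pou3f3, the 4 cKO arrays lay apart from the 4 control arrays, both lower, which was so for 8.4% of all probe sets in either direction and 5.7% in that of these genes (2.7% in the other). The call count of 0 was the same under every alternative run, Y-linked signal as a covariate and the arrays without Y-linked signal left out among them.

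Among the cut-homeobox genes, Cux1 and Cux2 differed in where their cKO arrays lay. Cux1 read 9.19, 9.17, 9.09 and 9.05 on the control cortex arrays 1 to 4 and 9.23, 9.19, 9.17 and 9.23 on the cKO arrays. These values overlapped, with a change of 0.08 (SE 0.07, 95% interval -0.08 to 0.24, adjusted p = 0.775). Cux2 read 9.52, 9.38, 9.34 and 9.36 in control and 9.20, 9.07, 9.07 and 9.30 in cKO cortex. Every cKO array of Cux2 lay below every control array, but the change of -0.24 (SE 0.08, interval -0.43 to -0.05, 84.5% of the control level) did not pass the test (adjusted p = 0.281).

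Rorb and Rasgrf2 overlapped between the genotypes. Rorb, the granular layer receptor, read 9.72, 9.59, 9.49 and 9.49 in control and 9.89, 9.56, 9.57 and 9.72 in cKO cortex. Its change was 0.11 (SE 0.12, interval -0.16 to 0.38, adjusted p = 0.826), and -0.01 without the cKO arrays 1 and 4, its highest, which are those without Y-linked signal. Rasgrf2 read 9.87, 9.69, 9.75 and 9.72 in control and 9.71, 9.58, 9.53 and 9.71 in cKO cortex, a change of -0.13 (SE 0.08, interval -0.32 to 0.06, adjusted p = 0.669). The control array 1 and the cKO arrays 1 and 4 were the highest of their groups in Rasgrf2.

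The POU factors all had a lower mean in cKO cortex, and none passed the test. Pou3f1 read 8.31, 8.66, 8.52 and 8.33 in control and 8.42, 8.06, 8.28 and 8.21 in cKO cortex, overlapping, with a change of -0.21 (SE 0.10, interval -0.45 to 0.02, adjusted p = 0.502). Pou3f2 read 9.31, 9.48, 9.17 and 9.05 in control and 9.09, 8.91, 8.99 and 9.31 in cKO cortex, overlapping too, with a change of -0.17 (SE 0.13, interval -0.46 to 0.12, adjusted p = 0.718). Pou3f3 read 8.32, 8.68, 8.40 and 8.36 in control and lay between 8.22 and 8.30 on the 4 cKO arrays, all below the controls. Its change was -0.19 (SE 0.09, interval -0.38 to 0.01, adjusted p = 0.472), and -0.11 without control array 2, the highest. Pou3f4, the remaining member of this POU class and named after its value was seen, stood at -0.35 (SE 0.16, adjusted p = 0.468).

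Calb1 and Inhba were the members with the widest and the largest differences. Calb1 ranged from 7.22 (control 2) to 7.96 (control 4) among the controls, a spread that took in all 4 cKO arrays (7.35, 7.69, 7.65 and 7.49). The change of -0.09 (SE 0.16, interval -0.45 to 0.27, adjusted p = 0.911) became 0.03 without the cKO arrays that lack Y-linked signal. Inhba read 7.88, 7.94, 7.66 and 7.57 in control and 7.61, 7.25, 7.18 and 7.46 in cKO cortex. Only control 4 and cKO 1 overlapped in Inhba. Its change was -0.38 (SE 0.13, interval -0.67 to -0.10, 1.31-fold, adjusted p = 0.243), and over all alternatives it lay between -0.54 and -0.32 with an adjusted p from 0.192 to 0.523. The interval of each of the 9 genes lay between -0.67 and 0.38, whereas Ctcf fell by 1.42 and Neurod6 by 1.87 (SE 0.21, adjusted p = 0.00201). Neurod6 (Nex) is the locus of the Cre allele, which only cKO mice carry. In its fall, effects of that allele and of Ctcf deletion cannot be told apart.

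**Figure D1:**
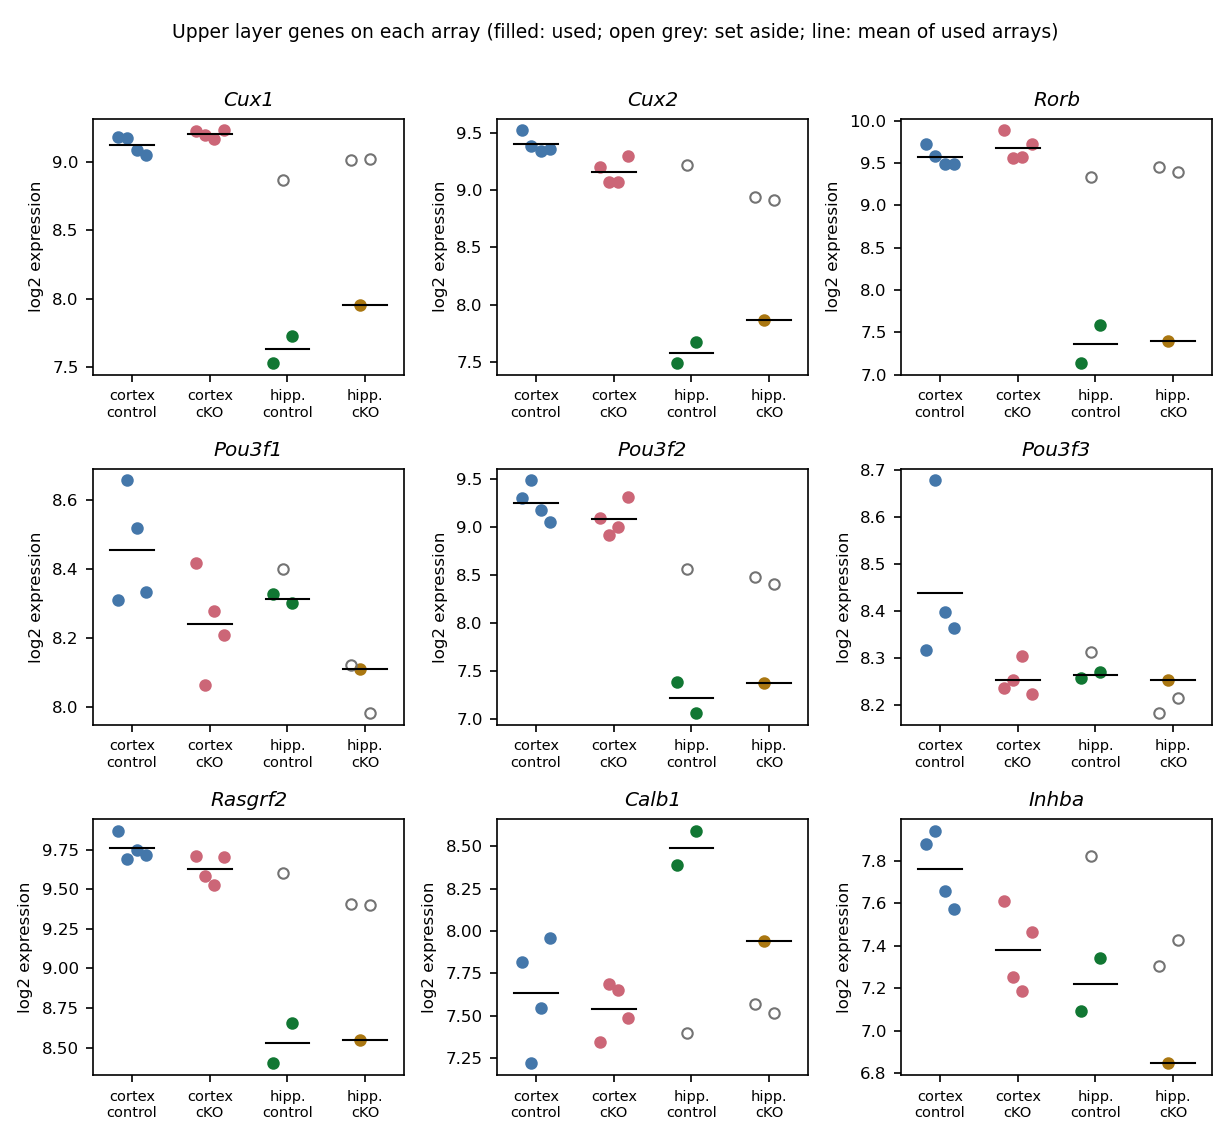
Log2 expression of the 9 measured upper layer genes on each array, in 4 groups, with filled points for the 11 arrays used, open points for the 3 near-copies set aside and a line at the mean of the used arrays. Cux1, Cux2, Rorb, Pou3f2 and Rasgrf2 are lower on the 3 used hippocampus arrays than on every cortex array, and the open points lie near the cortex levels.

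**Figure D2:**
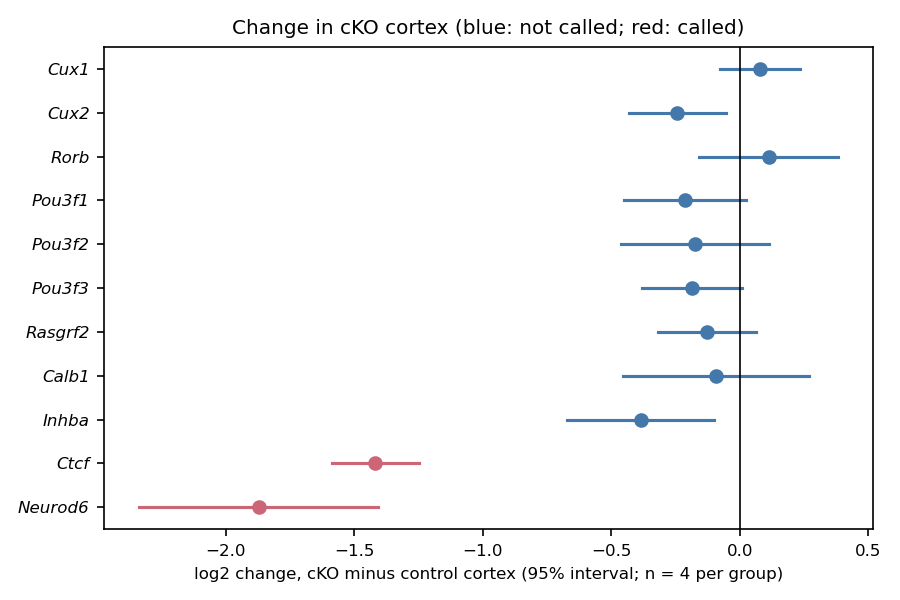
Change between cKO and control cortex on the log2 scale (x axis) with its 95% interval, n = 4 per group, for the 9 upper layer genes and for Ctcf and Neurod6. Of the 9 genes none was called, and their points lie between -0.38 and 0.11, while Ctcf and Neurod6 stand at -1.42 and -1.87.

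Other genes of the upper layers, listed with results of these data known, did change in part. Of 25 measured of 26 listed, 2 rose and 5 fell in cKO cortex (1.95% of all probe sets were called, 0.591% higher and 1.36% lower), with a median of -0.003. Cdh6, a type II cadherin, rose by 0.66 (SE 0.07, adjusted p = 0.00234), and Unc5d, a netrin receptor of migrating upper layer neurons, rose by 0.49 (SE 0.08, adjusted p = 0.0141). Falls were called for the plexin Plxnd1 (-0.60, SE 0.07, adjusted p = 0.00231), the LIM-domain factor Lmo4 (-0.44, SE 0.06), the potassium channel Kcnh5 (2.01-fold, SE 0.15 on the log2 scale), Otof (-0.58, SE 0.08) and the orphan nuclear receptor Nr4a3 (-0.55, SE 0.11, adjusted p = 0.0401). Cbln2 stood at -0.41 (adjusted p = 0.0576) and Kitl at 0.46 (adjusted p = 0.0676). Without the cKO arrays that lack Y-linked signal 3 of the 25 were called, Cdh6, Unc5d and Plxnd1, and with all 14 arrays as labelled 1 was. The call of Nr4a3 ended on leaving out any 1 array of cortex or control hippocampus except cortex cKO 1, the adjusted p then reaching 0.129 at most, and that of Unc5d without control 3 or cKO 2 (up to 0.0546).

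Deep layer genes, given as the nearest comparison, fell more often. Of 16 measured of 19 listed 9 fell and none rose, where 1.36% of all probe sets fell and 0.591% rose. Among the 16, 15 changes were negative and the median was -0.70. Rprm fell by 1.74 (SE 0.06) and Fezf2, which specifies subcerebral projection neurons, by 1.63 (SE 0.08). Over the alternatives the count of deep layer genes called ran from 7 to 10. The calls of Tle4 and Pcp4 ended under 7 and 8 of 24 alternatives (limma, adjusted p of up to 0.141 and 0.136). That of Crym ended under 1 (0.722). The difference between the deep layer and the upper layer genes was not tested. Every deep layer gene called had all 4 cKO arrays below all 4 controls, as 5.7% of all probe sets did. The calls come from these same arrays, so this separation adds no support to them.

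**Figure D3:**
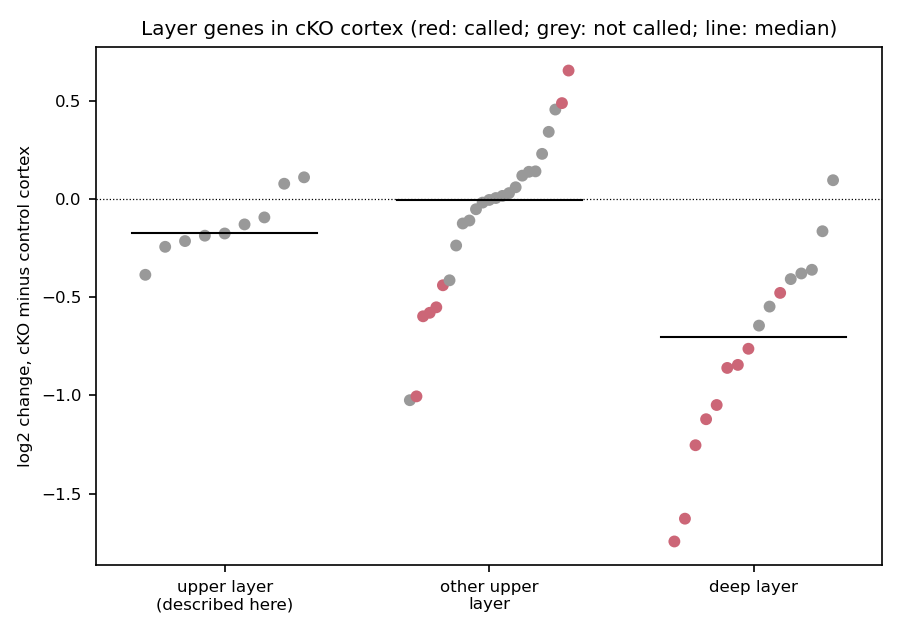
Log2 change between cKO and control cortex for each gene of 3 groups, the 9 upper layer genes described here, 25 other upper layer genes and 16 deep layer genes, with called genes in red, the others in grey and a line at the median. The medians lie at -0.17, -0.003 and -0.70, and no point of the first group is red.

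Relatives and partners of the members, such as activin receptors, were compared in the same way. Of 23 measured of 28 listed none was called by limma in cKO cortex, where 1.95% of all probe sets were. An unadjusted p under 0.05 was found for 7 of the 23, where 11.4% of all probe sets passed, and the median was -0.06. Inha, the inhibin alpha subunit, stood at 0.35 (SE 0.09, adjusted p = 0.114), and was called at 0.37 after a further quantile normalization and 0.38 after centring. The chromatin organizer Satb1 stood at -0.29 (SE 0.08, adjusted p = 0.142) and the activin inhibitor follistatin (Fst) at -0.25 (SE 0.08, adjusted p = 0.235). Mdga2, the relative of the unmeasured Mdga1, stood at -0.07 (SE 0.08), and Rora, the relative of Rorb, at 0.10 (SE 0.15), both named after their values were seen.

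Markers of other cells of the cortex were compared as whole lists. Of the measured genes called in cKO cortex none belonged to the interneuron (13 measured), astrocyte (8), oligodendrocyte lineage (9), microglia (10) or endothelium and pericyte (9) lists. An unadjusted p under 0.05 in limma's test was found for 6, 1, 1, 1 and 3 of them in turn. Of all probe sets 1.95% were called and 11.4% had such a p. Calls were found in 3 further lists, all lower: 1 of 8 excitatory neuron genes (Neurod6), 2 of 11 hippocampal subfield genes and 1 of 7 striatum genes. Of all probe sets 1.36% were called lower. The thalamus, choroid plexus, meninges and fibroblast, and progenitor lists held no call. The microglia list had 10 of 10 positive changes with a median of 0.34, and its summed linear signal ranged from 969 to 1573 on the control and from 1278 to 1918 on the cKO arrays. The endothelium and pericyte list had 9 of 9 negative changes with a median of -0.17, and sums of 1968 to 2750 in control and 1903 to 2083 in cKO cortex. Of interneuron genes, which matter for Calb1, 7 of 13 changes were negative, with a median of -0.05 and a range from -0.43 to 0.41. Their sums ran from 5966 to 6565 in control and from 5311 to 6018 in cKO cortex. No marker of these lists lay at or below the background level of 3.55, the median of the olfactory receptor probe sets, in any group. The part of these cells in the values above was not tested.

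The 2 regions were set apart by most of the members. In control hippocampus 5 of the 9 genes, Cux1, Cux2, Rorb, Pou3f2 and Rasgrf2, were lower than in control cortex and 1, Calb1, was higher, where 12.5% of all probe sets were called (6.29% lower, 6.2% higher). Of those calls 49.6% were higher, and 30.8% when arrays were centred on their medians. In 8 of 9 genes, all but Pou3f1, the 2 hippocampus arrays lay apart from the 4 cortex arrays, which was so for 37.6% of all probe sets. At an unadjusted p under 0.05 there were 7 of 9, where 28.8% of all passed. The median difference was -1.23, against 0.02 over all probe sets. Lower levels in hippocampus were not particular to the members. Of the 25 other upper layer genes measured 11 were called lower and 4 higher, with a median of -0.40. Of the 16 deep layer genes measured 9 were called lower and 3 higher, with a median of -0.54. The differences between these lists were not tested.

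The near-copies bear on the size of these differences. Each of the 3 set-aside arrays differed from the cortex array it matched, and did so alike: over all 23332 probe sets the differences of any pair correlated at 0.687 or more with those of another, and in 9 of 9 members they had 1 sign in all 3 pairs. For Pou3f2 they were -0.62, -0.51 and -0.51, and for the other members the mean offset lay between -0.18 (Cux1) and 0.15 (Inhba). Region differences are therefore given as deposited and with the mean offset subtracted, an alternative chosen after seeing the data. The error of the offset does not enter its SE or p.

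Rorb showed the largest region difference of the 9, as deposited and with the offset subtracted. It read 7.14 and 7.58 on the hippocampus control arrays 1 and 3, against 9.49 to 9.72 in control cortex. Hippocampus lay 4.63-fold below cortex (difference -2.21, SE 0.15, adjusted p = 6.51e-05, and -2.07 with the offset subtracted, adjusted p = 0.000111). Pou3f2 read 7.39 and 7.06 in control hippocampus, against 9.05 to 9.48 in control cortex, 4.08-fold lower (difference -2.03, SE 0.16, adjusted p = 0.000143). Its difference was the one most altered by the offset, to -1.48 (2.79-fold, SE 0.16, adjusted p = 0.00108).

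The cut-homeobox genes and Rasgrf2 followed. Cux2 read 7.49 and 7.67 in control hippocampus, 3.53-fold below cortex (difference -1.82, SE 0.10, adjusted p = 2.74e-05, and -1.69 with the offset subtracted). Cux1 read 7.53 and 7.73, 2.82-fold below cortex (difference -1.50, SE 0.09, adjusted p = 2.74e-05, and -1.31 with the offset subtracted). Rasgrf2 read 8.40 and 8.65, 2.35-fold below cortex (difference -1.23, SE 0.10, adjusted p = 0.000233, and -1.08 with the offset subtracted). No group mean of any of the 9 genes lay at or below the background level of 3.55.

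Neither Pou3f1 nor Pou3f3 passed the test between the regions. Pou3f1 read 8.33 and 8.30 in control hippocampus, within the cortex range of 8.31 to 8.66 or just below it (difference -0.14, SE 0.13, interval -0.43 to 0.15, adjusted p = 0.51). Pou3f3 read 8.26 and 8.27 against 8.32 to 8.68 (difference -0.18, SE 0.11, interval -0.42 to 0.06, adjusted p = 0.308). With the offset subtracted both were smaller, at -0.02 and -0.09. The intervals of both excluded a difference of the size of Pou3f2's.

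Calb1 ran the other way. It read 8.39 and 8.59 in control hippocampus against 7.22 to 7.96 in control cortex, 1.81-fold higher (difference 0.86, SE 0.20, adjusted p = 0.0242), and 0.99 higher with the offset subtracted (adjusted p = 0.0237). The call ended without cortex control 3 (adjusted p = 0.0555), hippocampus control 1 (0.109) or hippocampus control 3 (0.119). The Calb1 call also ended with the compared groups fitted alone (0.0823), a block for replicate number (0.123) or all 14 arrays as labelled (0.283). Inhba, at 7.09 and 7.34 against 7.57 to 7.94, lay below cortex without passing the test (difference -0.54, SE 0.15, adjusted p = 0.0512). It passed under 6 of 24 alternatives, among them the offset subtracted (-0.70, adjusted p = 0.0374) and centring on array medians (-0.60, adjusted p = 0.0238). With all 14 arrays as labelled, the 3 near-copies included, only Pou3f2 of the 9 was called (-1.58, SE 0.33, adjusted p = 0.0289), and Rorb stood at -1.55 (SE 0.52, adjusted p = 0.118).

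**Figure D4:**
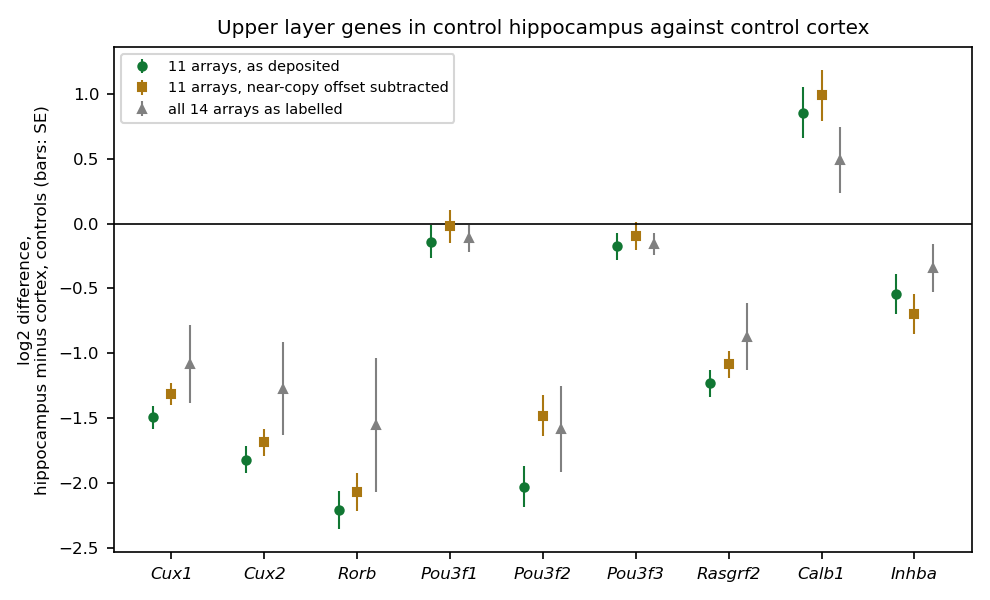
Log2 difference between control hippocampus and control cortex for each of the 9 genes (y axis, bars are the SE), as deposited on the 11 arrays, with the offset of the near-copies subtracted, and on all 14 arrays as labelled. Rorb, Pou3f2, Cux2, Cux1 and Rasgrf2 lie below -1.0 in the first 2 sets, Pou3f1 and Pou3f3 lie near 0, and Calb1 lies above 0 in all 3.

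The hippocampus arrays carried other tissue signals too. Of 6 choroid plexus genes 4 were higher in control hippocampus than in cortex, and their summed linear signal was 565 and 5311 on the 2 arrays against 216 to 244 in control cortex. Of 8 astrocyte genes 3 were higher, with sums of 8688 to 9288 against 5459 to 7194. Of 13 interneuron genes 3 were higher, with sums of 7186 to 7496 against 5966 to 6565. Of all probe sets 6.2% were called higher and 6.29% lower. These counts are as deposited. With the offset subtracted 338 of all probe sets were called higher, against 1446 as deposited. The part of these other tissues in the region differences was not tested. Of relatives and partners limma called 2 of 23 higher and 6 lower in control hippocampus, where 6.2% and 6.29% of all probe sets were. Satb1 was lower (-1.03, SE 0.10, adjusted p = 0.000472). So were, named after their values were seen, Mdga2 (-0.71, SE 0.10, adjusted p = 0.00303) and Rora (-0.77, SE 0.18, adjusted p = 0.0273). The call of Rora ended under 7 of 24 alternatives. Among them were all 14 arrays as labelled (adjusted p = 0.347) and leaving out cortex control 1 or 4 or either hippocampus control array (up to 0.134). That of Mdga2 ended under 2, the replicate block (0.0595) and all 14 arrays (0.0703). Fst was higher by 0.85 (SE 0.10, adjusted p = 0.00139) as deposited, and by 0.30 with the offset subtracted, which ended its call (adjusted p = 0.133).

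In hippocampus the cKO change rests on 1 cKO array, number 2, and 2 control arrays. The deleted gene itself was not called there: Ctcf read 8.31 on the cKO array against 8.95 and 9.16 on the controls (change -0.75, SE 0.13, adjusted p = 0.172, against -1.42 in cortex). Neurod6 stood at -1.19 (SE 0.36, adjusted p = 0.516). None of the 9 genes was called by limma, where 1 of 23332 probe sets was (0.00429%), and 1 of the 9, Cux1, had an unadjusted p under 0.05, where 6.21% of all did. Cux1 read 7.95 against 7.53 and 7.73 (change 0.32, SE 0.12, adjusted p = 0.688), and Cux2 read 7.87 against 7.49 and 7.67 (0.28, SE 0.15, adjusted p = 0.864). Both lay above the control arrays. Pou3f1, Pou3f3, Calb1 and Inhba lay below them. Calb1 read 7.94 and Inhba 6.85, both below the 2 control arrays, with changes of -0.55 (SE 0.28, adjusted p = 0.857) and -0.37 (SE 0.22, adjusted p = 0.905). Such separation of 1 array from 2 was found for 67.3% of all probe sets, 41.6% with the cKO array higher and 25.8% with it lower. Rorb (7.40), Pou3f2 (7.38) and Rasgrf2 (8.55) lay between the 2 controls, Pou3f1 (8.11) stood at -0.20 (SE 0.18) and Pou3f3 (8.25) at -0.01 (SE 0.15). As labelled, with 3 arrays a group, the changes ranged from -0.45 (Calb1) to 0.73 (Rorb, SE 0.55, adjusted p = 0.792), with 2 of the 3 cKO arrays and 1 of the 3 controls near-copies of cortex, and none of the 9 was called.

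The change in cKO differed between the regions in none of the 9 genes by the test of the difference itself, where 2 of 23332 probe sets were called (0.00857%) and 5.26% had an unadjusted p under 0.05. Cux2 came nearest, with a change higher by 0.53 in hippocampus than in cortex (SE 0.17, interval 0.15 to 0.91, adjusted p = 0.812), the only member with an unadjusted p under 0.05. For Rorb the difference was -0.07 (SE 0.24), with an interval from -0.62 to 0.47. This test holds a single cKO hippocampus array.

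Ordered by level, the 4 groups fell into a few patterns. Cux1 and Rorb were highest in cKO cortex, then control cortex, and Cux2, Pou3f2 and Rasgrf2 highest in control cortex, then cKO cortex. In these genes the cortex groups overlapped except in Cux2. In all 5 the lone cKO hippocampus array ranked above the mean of the control hippocampus arrays, by 0.32 in Cux1 and by 0.02 in Rasgrf2. So it did in 14022 of all 23332 probe sets, with a median of 0.06. In Rorb and Rasgrf2 the order turned after a further quantile normalization or centring. Pou3f1, whose neighbouring groups all overlapped, went from control cortex (8.45 ± 0.16, SD, n = 4) over control hippocampus (8.31) and cKO cortex (8.24 ± 0.15, n = 4) to cKO hippocampus (8.11). Calb1 was highest in control hippocampus (8.49), then cKO hippocampus (7.94), and overlapped between cKO hippocampus and control cortex (7.64 ± 0.32, n = 4) and between the cortex groups. Pou3f3 was highest in control cortex (8.44 ± 0.16, n = 4), and the other group means lay at 8.25 to 8.26, with cKO cortex overlapping both hippocampus groups and the cKO hippocampus array below both hippocampus controls. Inhba ran from control cortex (7.76 ± 0.18, n = 4) over cKO cortex (7.38 ± 0.19, n = 4) and control hippocampus (7.22) to cKO hippocampus (6.85), and only the last step was without overlap.

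The probe sets most like a member over the 11 arrays were found for the 4 members with the largest spread. For Rorb (SD 1.06 over the arrays) they were Tbc1d5, Gucy1a1 and Met (Pearson's r 0.994, 0.993 and 0.993). For Pou3f2 (SD 0.90) they were Mark1, Smarcd1 and Tcf20 (0.986, 0.986 and 0.985). For Cux2 (SD 0.77) they were Sorcs1, Mark1 and Hivep1 (0.995, 0.994 and 0.993), and for Cux1 (SD 0.68) Smarca2, Tbc1d5 and Ptprk (0.997, 0.996 and 0.996). These correlations are descriptions over 8 cortex and 3 hippocampus arrays, which form separate clusters in these genes.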

How the data were processed

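Expression was measured on 14 arrays in 4 groups, taken from the labels. The deposited values are log2 levels, 1 for each probe set and array. RMA, Affymetrix Expression Console, Partek 6.4 and the mm9 build are named in the submitters' processing notes. The sources used here do not say which arrays the authors normalized together. No filter was applied. Gene names came from the platform's annotation, in which 14996 probe sets had 1 symbol, 1019 several and 7317 none.

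limma 3.58.1 in R 4.3.3 was fitted to 11 arrays with 1 mean per group and eBayes, after 3 near-copies were set aside, with Benjamini-Hochberg adjustment over all 23332 probe sets. Calls needed an adjusted p under 0.05 and a change over 1.2-fold, the cut-offs that the series text names. SE is the standard error after moderation, SD describes arrays within a group, and intervals are 95% intervals of the fit. The number of arrays limits the precision. The procedure was tested on simulated data.

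The members and lists were chosen with earlier results of these data known. All members were named. Of the other lists, genes called in cortex and up to 4 more with the smallest p could be named. Same-numbered control and cKO cortex arrays did not deviate together (r from -0.06 to 0.05), so replicate numbers were not used as pairs. Alternatives changed the scaling, filter, moderation, arrays, covariates, fold minimum and probe set per gene, or left out each array in turn.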

Additional observations from a re-analysis of the deposited data

How the results depend on the processing

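Of 846 values of the members' 36 results under alternatives, 798 kept their direction and their side of the threshold, 10 lost a call, 6 gained one and 32 changed sign, none of these 32 called. The cortex count of 0 members held under every alternative run, and leave-one-out fits gave 5 to 7 members between regions (6 in the reported fit), with 1 on all 14 arrays. The replicate block, whose numbers do not pair the samples, gave 118 probe sets in cortex (455 reported), 402 between regions (2913), 0 in hippocampus (1), 0 for the difference of changes (2) and 0 other upper layer genes (7). All 14 arrays gave 635, 78 and 0 probe sets for regions, hippocampus and the difference, and 1 other upper layer gene. The compared groups alone gave 1127 and 0 for regions and hippocampus. Y-linked signal as a covariate gave 282, 1772 and 0 for cortex, regions and hippocampus, and leaving out the cortex cKO arrays that lack it gave 212, 0 and 0 for cortex, hippocampus and the difference, and 3 other upper layer genes. The offset subtracted gave 1124 between regions. A 1.5-fold minimum gave 287, 1502 and 3 for cortex, regions and other upper layer genes. Quantile normalization and centring gave 30 and 9 in hippocampus, 4 and 4 for the difference and 1 relative or partner each, and trended, robust moderation gave 8 in hippocampus. Leave-one-out ranges were 273 to 455, 597 to 2913, 0 to 4 and 0 to 2 for cortex, regions, hippocampus and the difference. Leaving out the lone cKO hippocampus array left no value for it. Of the sign changes, quantile normalization and centring gave Rorb -0.037 and -0.026 and Rasgrf2 -0.063 and -0.045 in hippocampus, and for the difference Pou3f1 -0.14 and -0.089 and Inhba -0.12 and -0.084. The difference for Rorb became 0.019 (replicate block), 0.62 (14 arrays) and 0.047 (without arrays lacking Y-linked signal), for Pou3f1 -0.058 (14 arrays) and for Inhba -0.0013 (block). In cortex Calb1 became 0.025 with the covariate and 0.034 without those arrays, and Rorb -0.0085 without them, and Pou3f3 became 0.0074 in hippocampus with the covariate. Leave-one-out ranges that crossed 0 were -0.11 to 0.14 (Inhba), -0.059 to 0.067 (Pou3f1) and -0.30 to 0.15 (Rorb) for the difference, -0.23 to 0.015 for Calb1 in cortex, and -0.19 to 0.26 (Rorb), -0.11 to 0.15 (Rasgrf2) and -0.0049 to 0.32 (Pou3f2) in hippocampus. The cause was not tested.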
